A study of Mus musculus with 20 samples.

Results

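The wild type lines WT#1-4 and WT#20D-17, a pair of clonal lines of mouse induced pluripotent stem cells (iPSCs), were compared with each other during embryoid body (EB) differentiation. They were chosen by their line label, as 10 of the 20 RNA-seq libraries of the series, with 5 libraries per line on days 0, 3, 5, 7 and 14. Both lines carried the wild type genotype and received no drug. By the study's general methods, iPSCs were made from mouse embryonic fibroblasts (MEFs) by pMXs-IRES-Puro retroviruses carrying mouse Oct4, Sox2, Klf4 and c-Myc. Puromycin selection followed, and each line was grown from 1 picked colony. The cells were kept on mitomycin C treated MEF feeders with LIF, formed EBs in hanging drops without LIF for 3 days, and were then plated on gelatin. The sample titles give day 14 as the last day while the protocol text in the labels says day 10, and day 14 is used here. WT#20D-17 is wild type by its label and is not among the lines the paper describes. That it was made in the same way and is 1 clone is therefore assumed.

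Mouse iPSCs hold a naive pluripotent state that depends on a network of transcription factors such as Oct4 (Pou5f1), Sox2, Nanog and Esrrb. After LIF is withdrawn, EBs pass through an epiblast-like stage and form primitive streak, mesoderm, endoderm and ectoderm derivatives, with an outer layer of primitive endoderm that gives visceral and parietal endoderm. Retroviral reprogramming factors are normally silenced once a line is fully reprogrammed, and endogenous pluripotency genes take over. The counts analysed here do not tell an endogenous transcript of a reprogramming factor from its retroviral copy.

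Library totals were between 20968379 and 26237551 counts, and 1 count was worth 0.0365 to 0.0537 CPM (CPM, the count scaled by library size and TMM factor, and the unit of all levels below). Intervals and floors given below cover counting error only. Levels are in CPM, and a daily difference is log2(CPM + 1) in WT#20D-17 minus that in WT#1-4. Mitochondrial genes took 2.14% of counts on day 0 and 1.41% on day 14 in WT#1-4, against 1.66% and 0.498% in WT#20D-17, and the part of this in the differences below was not tested. The first principal component, with 63% of the variance, separated the lines, and the second, with 18.6%, ordered the days. In bulk RNA, fewer cells of a type and less RNA per cell cannot be told apart.

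The lines differed widely on every day. Of 16847 genes tested, 1960 (11.6%) were called higher in WT#20D-17 and 1731 (10.3%) lower, where a call was an FDR under 0.01 from edgeR's quasi-likelihood test with day in the model and a fitted difference of at least 1 log2 unit. The median difference of all genes tested was 0.01. On single days, the share of genes higher by at least 2-fold in WT#20D-17 was 16.5% on day 0, 16.0% on day 3, 18.1% on day 5, 15.7% on day 7 and 18.9% on day 14. The share lower by at least 2-fold was 14.8%, 13.4%, 15.2%, 16.0% and 17.6% on those days. Counts of genes called, or past 2-fold on a day, in the lists below are to be read beside these shares. Of the genes called higher, 1932 differed in the same direction on all 5 days and 993 by at least 2-fold on each of them, and the genes called lower gave 1720 and 911. Another 572 genes were 2-fold higher on one day and 2-fold lower on another. Each line is 1 clone with 1 library per day. The p-values thus measure how steady a difference between these clones was over days, not how wild type lines differ in general. A gene with no count in one line is an exception. The day terms then fit the other line exactly, so its p-value does not measure how steady the difference was. Zfp42, Hbb-bh1, Prl3b1, Sycp1, Mael and Nyap2 below are such genes. Leaving out day 3, 5 or 7 gave 2198, 2055 or 2097 calls in place of 3691. Of 225 called genes that were chosen for naming, 63, 72 and 63 lost their call without those days, against 13 without day 0 and 15 without day 14, and none changed direction. The fitted difference of a gene near 0 in one line depends on the prior count of the fit, so such genes are given by their levels.

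**Figure D1:**
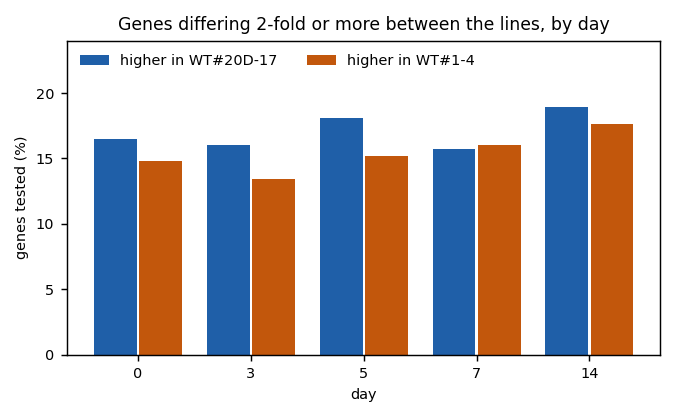
Share of the 16847 genes tested (percent, y axis) that differed by at least 2-fold between the lines on each day (x axis, days equally spaced), with 1 library per line and day and no error bar. Between 13.4% and 18.9% of genes passed in each direction, and day 14 had the highest share in both.

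As a yardstick, the same model was run on the Nox4-/- lines of the series, Nox4-/-#5-23 against Nox4-/-#5-8. It called 887 of 15265 genes (5.81%), 403 higher and 484 lower in Nox4-/-#5-23. The number called between the wild type lines was 3691. Without day in the model the counts were 262 and 3922.

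Genes of the naive pluripotency network separated the lines on all days, and the reprogramming factors did not move as one group. Nanog, a core factor of the network, lay at 377, 159, 43.4, 29.0 and 8.47 CPM on days 0, 3, 5, 7 and 14 in WT#20D-17 and at 0.0373, 0.87, 0.767, 0.754 and 0.215 CPM in WT#1-4. Its levels in WT#20D-17 were all above those in WT#1-4, with the lowest on day 14 (log2 difference 6.99 ± 1.02 SE, adjusted p = 0.00197 from edgeR's quasi-likelihood test). Esrrb, another naive factor, had 121, 48.6, 19.5, 9.17 and 4.82 CPM in WT#20D-17 and at most 0.198 CPM in WT#1-4 (8.15 ± 0.68). Zfp42, the naive marker also called Rex1, had 41.0, 22.3, 11.1, 6.3 and 12.0 CPM in WT#20D-17 and no count in any library of WT#1-4, so it was at least 785-fold higher against a floor of 3 counts over the line. Dppa5a was highest on day 0, at 887 CPM, and stood at 24.6 CPM on day 14, while WT#1-4 had 0.0537 to 2.22 CPM. Of the 23 naive genes, all tested, 15 were called higher in WT#20D-17 and 3 lower, beside 11.6% and 10.3% of all genes, with a median difference of 3.94. With 1 day left out, 12 to 16 were called higher and 0 to 3 lower.

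The 3 naive genes called lower in WT#20D-17 were Pou5f1, Klf4 and Fgf4. Pou5f1, which encodes Oct4, had 5652, 3252, 3351, 2993 and 1383 CPM in WT#1-4 against 1119, 374, 110, 78.6 and 21.4 CPM in WT#20D-17. WT#1-4 was higher on every day, and its lowest level, on day 14, was above the highest of WT#20D-17, on day 0 (difference -4.36 ± 0.63, adjusted p = 0.00188 from edgeR). Klf4 had 792, 485, 460, 513 and 385 CPM in WT#1-4 and 26.0, 17.2, 37.7, 45.8 and 182 CPM in WT#20D-17 (-3.66 ± 0.61). Myc, the fourth factor with Sox2, had 1312, 528, 538, 583 and 434 CPM in WT#1-4 and 50.1, 33.0, 35.4, 25 and 16.6 CPM in WT#20D-17, without overlap (-4.38 ± 0.2, adjusted p = 3.07e-05 from edgeR). Sox2 went the other way, with 192, 53.2, 30.5, 15.5 and 7.04 CPM in WT#20D-17 and 33.0, 16.8, 15.1, 4.52 and 1.13 CPM in WT#1-4 (1.90 ± 0.27). Fgf4, a growth factor gene bound by Oct4 and Sox2, was at 92.1 CPM against 143 CPM on day 0 and at 2.28 against 63.2 CPM on day 14. Without day 5 the calls of Nanog (7.42), Pou5f1 (-4.18) and Klf4 (-3.67) were lost, and Klf4 was also lost without day 3 (-3.35) or day 7 (-3.71).

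**Figure D2:**
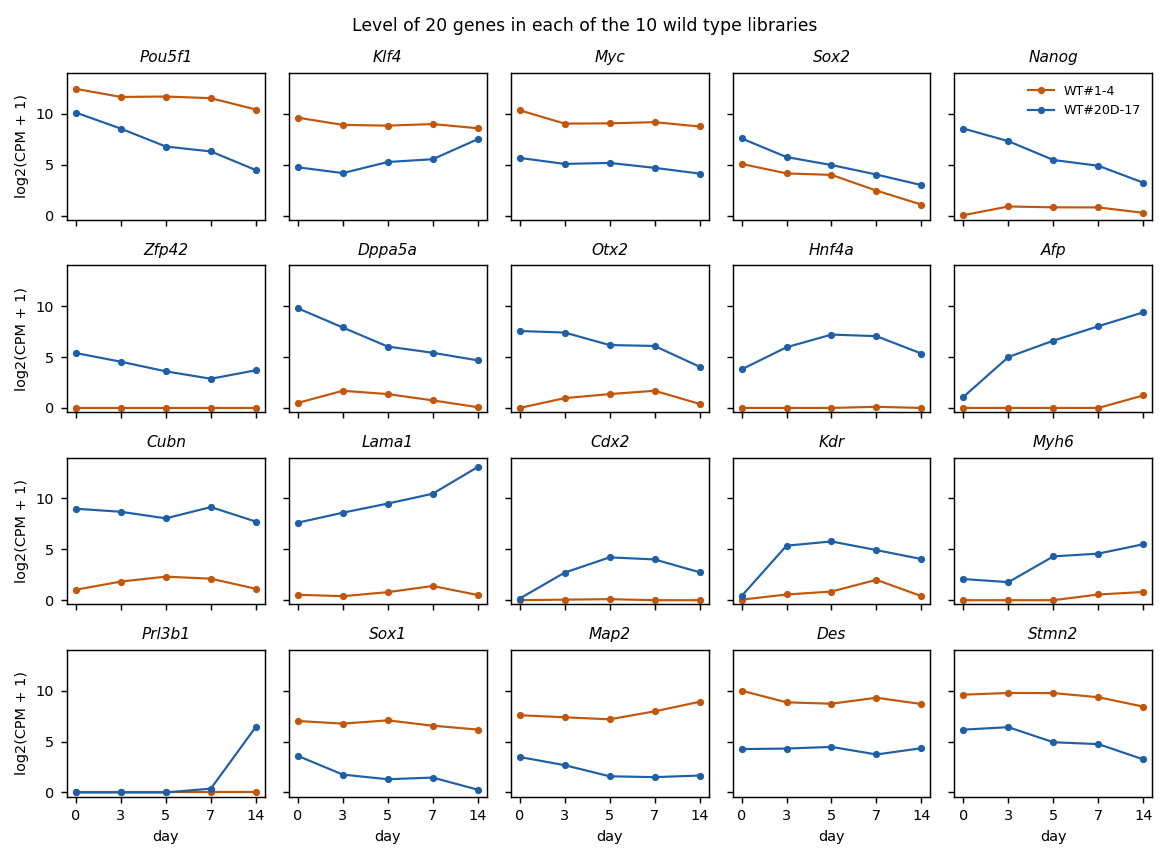
Level of 20 genes as log2(CPM + 1) (y axis) on each day (x axis, days equally spaced), one point per library, WT#1-4 in orange and WT#20D-17 in blue. Pou5f1, Klf4, Myc, Sox1, Map2, Des and Stmn2 were higher in WT#1-4 on every day, while Nanog, Zfp42, Hnf4a, Cubn and Lama1 lay at or under 3.98 CPM in every library of WT#1-4.

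Genes of the primed epiblast, the state that follows naive pluripotency, were also higher in WT#20D-17. Fgf5, its classical marker, had 93.5, 68.0, 19.5, 28.6 and 1.64 CPM in WT#20D-17 and 0.0, 0.316, 0.329, 0.278 and 0.0 CPM in WT#1-4 (7.56 ± 0.84). Otx2, a homeobox factor of the epiblast and anterior neural plate, had 188 and 169 CPM on days 0 and 3 and 15.6 CPM on day 14, against at most 2.22 CPM in WT#1-4. In WT#20D-17 both genes thus had their lowest level on day 14, and WT#1-4 stayed near 0 on all days. Of 11 genes, 8 were called higher and none lower (5 to 8 with 1 day left out), the 8 including Nodal, Lefty1 and Dnmt3b. Dnmt3b, a de novo DNA methyltransferase, had 714 CPM on day 0 and 43.2 on day 14 in WT#20D-17 against 2.47 to 17 CPM in WT#1-4. Its cofactor gene Dnmt3l had 134, 60.6, 20.0, 12.6 and 13.1 CPM against at most 0.0793 CPM. Without day 5 the call of Otx2 was lost (7.01). In the wider list of 15 DNA methylation genes, 3 were called higher (Dnmt3b, Dnmt3l, Tet1) and 2 lower (Tet3, Tdg), with 2 to 3 and 1 to 3 when 1 day was left out, and the median was -0.20. Of all genes, 11.6% were called higher and 10.3% lower.

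Of the fate lists, endoderm had the largest share of genes called, and in 1 direction only. Of 26 genes of primitive, visceral and definitive endoderm, 25 were tested, 23 were called higher in WT#20D-17 and none lower, and the median of those tested was 8.23. With 1 day left out, 19 to 23 were called higher. Over all 26, the median daily difference was 2.81 on day 0, 4.91 on day 3, 5.73 on day 5, 6.39 on day 7 and 5.17 on day 14. Hnf4a, a nuclear receptor of visceral endoderm, had 12.8, 61.5, 147, 132 and 39.6 CPM in WT#20D-17. In WT#1-4 it had 2 counts in all, on day 7, a summed ratio of 4916 with a 95% counting interval of 1361 to 40603. Its level in WT#20D-17 was highest on days 5 and 7. Gata4, an endoderm regulator, had 83.2, 305, 629, 581 and 649 CPM against 0.0, 0.0396, 0.256, 3.09 and 1.13 CPM, and Sox17 had 8.2, 72.3, 112, 139 and 127 CPM against at most 0.555 CPM. Both were thus present on day 0 and several times higher on each later day in WT#20D-17. Afp, which encodes alpha-fetoprotein, had 1.13, 31.1, 96.8, 260 and 673 CPM in WT#20D-17, highest on day 14, and 1.34 CPM on day 14 only in WT#1-4. Of the lipid and vitamin carriers made by visceral endoderm, Apob was at 89.8, 360, 1326, 2364 and 519 CPM against at most 1.77, and Ttr at 8.52, 50.9, 138, 268 and 95.9 against at most 0.322 CPM. Both were highest on day 7. Cubn and Lrp2, the endocytic receptors of its apical surface, were already at 507 and 400 CPM on day 0 in WT#20D-17, against 1.04 and 0.0 CPM. Cxcr4 and Apoa2 were tested and not called, with differences of 2.12 and 0.97, and Alb, the albumin gene, had too few counts to be tested.

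**Figure D3:**
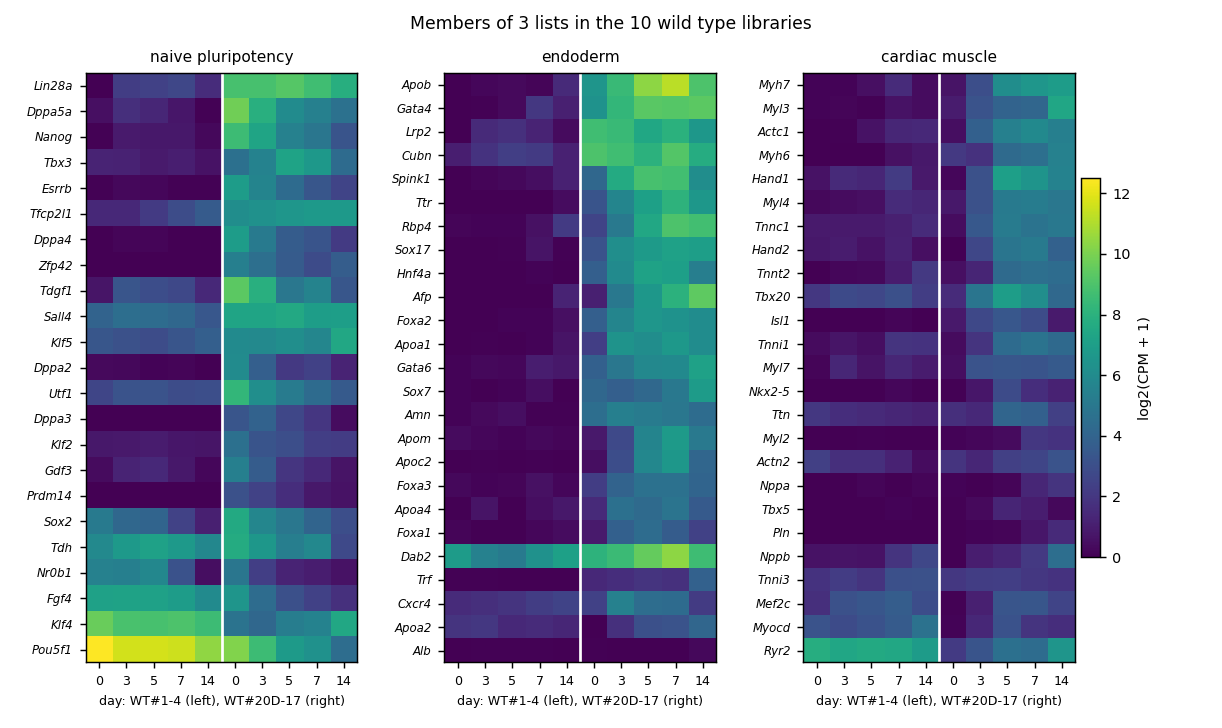
Level as log2(CPM + 1) (colour) of members of the naive pluripotency, endoderm and cardiac muscle lists in each of the 10 libraries (columns, days 0 to 14 of WT#1-4 then of WT#20D-17), ordered by the difference between lines. All endoderm genes drawn but Dab2, with 33.9 to 138 CPM, were low in WT#1-4 on every day, and most cardiac genes called higher reached their levels in WT#20D-17 from day 3 or 5.

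Parietal endoderm secretes the basement membrane of the yolk sac, built of laminin and type IV collagen. Of 18 genes, 9 were called higher and 1 lower (6 to 12 and 1 to 2 with 1 day left out), with a median of 2.74. Lama1, a laminin chain of early basement membranes, had 196, 387, 722, 1413 and 8688 CPM in WT#20D-17 against 0.447, 0.316, 0.73, 1.63 and 0.429 CPM (10.45 ± 0.9, adjusted p = 0.000251 from edgeR). Col4a1 had 373, 780, 2108, 3505 and 26413 CPM against 21 to 35.7 CPM (6.18 ± 0.99), and its call was lost without day 5 (6.16) or day 7 (5.95). Both were far higher on day 14 than on any other day in WT#20D-17, while in WT#1-4 Lama1 stayed at or under 1.63 CPM and Col4a1 at or under 35.7 CPM. Summed over the list, WT#20D-17 had 99942 CPM on day 14 against 7294 CPM. The laminin partners Lamb1 and Lamc1 were at 8478 and 9478 CPM on that day, against 522 and 1006 CPM, but were not called over all days (adjusted p = 0.0141 and 0.0201 from edgeR). Fstl1, a secreted glycoprotein gene, was the list's 1 call in the other direction, with 905 to 1688 CPM in WT#1-4 and 98.4 to 387 CPM in WT#20D-17.

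Primitive streak genes marked day 3 in WT#20D-17. Of 17 genes, 14 were tested, 8 called higher and none lower, with 4 to 10 called when 1 day was left out. The median daily difference over all 17 was 1.09, 3.08, 1.75, 1.46 and 0.19 on days 0, 3, 5, 7 and 14. Mixl1, a homeobox gene of the streak, had 1.45, 19.8, 3.56, 6.47 and 0.212 CPM in WT#20D-17 and at most 0.073 CPM in WT#1-4. T (Brachyury) had 42.4 CPM on day 3 and 6.11 CPM or less on the other days, against 0.107 to 0.803 CPM, and Eomes had 117 CPM on day 3 against 3.4 CPM. Neither was called over the 5 days (adjusted p = 0.0218 and 0.0316 from edgeR). Cdx2, which patterns the posterior streak and trophectoderm, came later, with 0.121, 5.55, 17.5, 15.1 and 5.72 CPM against at most 0.073 CPM (8.24 ± 0.68).

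Most cardiac muscle genes were near 0 in both lines on day 0, and those called were higher in WT#20D-17 afterwards. Of 25, 22 were tested, 10 called higher and none lower (6 to 15 and 0 to 1 with 1 day left out). At least 2-fold higher in WT#20D-17 were 1, 13, 16, 18 and 19 of the 25 on days 0, 3, 5, 7 and 14. At least 2-fold lower were 3, 3, 1, 3 and 2. Of all genes, 15.7% to 18.9% were higher by as much on single days and 13.4% to 17.6% lower. Summed over the list, WT#1-4 was higher on days 0 and 3, at 249 and 204 CPM against 21.8 and 128 CPM. The sum was lower in WT#1-4 on days 5, 7 and 14. Myh7, a myosin heavy chain of the embryonic ventricle, had 0.565, 6.97, 69.8, 92.7 and 118 CPM against 0.0745, 0.0791, 0.438, 1.9 and 0.322 CPM (6.64 ± 0.66). Nkx2-5, a cardiac homeobox gene, had at most 6.28 CPM, on day 5, against at most 0.159 CPM, and lost its call without day 3 (5.2). Myl3 stood at 168 CPM on day 14 and 0.929 CPM on day 0 in WT#20D-17. The cardiac genes called were thus at their highest on days 5 to 14 in WT#20D-17 and reached at most 3.17 CPM in WT#1-4. Ryr2, the cardiac calcium release channel, had a difference of -3.39 and was not called.

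Smooth muscle genes gave 8 called higher and 1 lower of 14 (5 to 8 and 1 to 2 with 1 day left out). Tagln, an actin-binding protein of smooth muscle, had 20 to 249 CPM, lowest on day 0, against 1.75, 14.7, 15.8, 18.7 and 35.4 CPM (3.41 ± 0.28). The exception was Des (desmin), with 1029, 463, 422, 634 and 412 CPM in WT#1-4 and 12.3 to 21.3 CPM in WT#20D-17 (-4.96 ± 0.32). Des was thus high in WT#1-4 already on day 0, before EB formation.

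Endothelial genes were called in both directions. Of 18, 17 were tested, 6 called higher and 3 lower in WT#20D-17 (4 to 6 and 0 to 4 with 1 day left out). The shares of all genes were 11.6% and 10.3%, and without day 5 no endothelial gene was called lower. Kdr, the VEGF receptor of early mesoderm and endothelium, had 0.323, 40.1, 53.7, 29.4 and 15.5 CPM in WT#20D-17 and 0.0373 to 3.01 CPM in WT#1-4 (5.17 ± 0.61). Tek, the angiopoietin receptor, had 277, 300, 372, 365 and 267 CPM in WT#1-4 against 1.33, 0.834, 16.2, 34.4 and 54.3 CPM (-5.05 ± 1.08). Its call was lost without day 0 (-4.32), day 3 (-4.29), day 5 (-5.31) or day 7 (-5.71). Cldn5, an endothelial tight junction gene, had 11.9 to 73.2 CPM in WT#1-4 and at most 3.98 CPM in WT#20D-17, and lost its call without day 5 (-4.85). Tek and Cldn5 were thus already present in WT#1-4 on day 0, and Kdr was close to 0 in both lines then. Of 17 primitive blood genes, 11 were tested, 6 called higher and 1 lower, beside the same shares of all genes. Hbb-bh1, an embryonic beta globin, had no count in WT#1-4 and 0.0, 0.167, 9.0, 29.7 and 0.265 CPM in WT#20D-17. It and the alpha-like globin Hba-x (10.5 CPM on day 7) were highest on day 7. With 1 day left out, 1 to 6 blood genes were called higher, and both globins lost their calls without day 5.

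The fibroblast list holds the markers by which MEF feeders would be seen, and it turned direction over the days. On day 0, 17 of the 22 genes were at least 2-fold lower in WT#20D-17, beside 14.8% of all genes, with a median daily difference of -1.91. On day 14, 14 of 22 were at least 2-fold higher, beside 18.9% of all genes, with a median of 2.34. Col1a1, the main fibrillar collagen, had 22.3, 14, 24.2, 38 and 35.7 CPM in WT#1-4 and 2.87, 36.6, 131, 588 and 959 CPM in WT#20D-17, so the lines crossed between days 0 and 3, and it was not called (adjusted p = 0.155 from edgeR). Summed over the list, WT#1-4 had 1970 to 4595 CPM and WT#20D-17 671 to 6211 CPM, with the lowest value of each line on day 0. Thy1 was at 4.4 and 13.9 CPM on day 0 in WT#1-4 and WT#20D-17, and the part of feeder cells in the day 0 differences was not tested. Over all days 1 gene was called higher (Col5a1) and 3 lower (S100a4, Prrx1, Mmp2), with 0 to 6 and 1 to 3 when 1 day was left out. The share called higher was under the 11.6% of all genes, and the share lower was not far from their 10.3%. Col5a1 lost its call without day 3, 5, 7 or 14 (3.17 to 3.36), Prrx1 without day 3 or 5 (-3.49 and -3.66) and Mmp2 without day 3 or 7 (-1.26 and -1.21). S100a4, a calcium-binding protein of motile fibroblasts, had 14.4, 34.8, 54.0, 43.6 and 68.0 CPM in WT#1-4 and at most 1.01 CPM in WT#20D-17. No collagen gene was called lower. By contrast, of 18 epithelial and tight junction genes, 8 were called higher and none lower (5 to 11 with 1 day left out). Krt18, a simple epithelial keratin, had 74.8, 781, 945, 820 and 991 CPM against 0.373, 2.97, 8.47, 14.1 and 22.5 CPM (6.68 ± 0.49). Cldn6, a claudin of embryonic epithelia, had 307 to 637 CPM against 0.112 to 1.99 CPM. Cdh1 (E-cadherin) was at 452 against 18.6 CPM on day 0 and at 214 against 194 CPM on day 14, and was not called.

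Among neural genes, more were called toward WT#1-4 than toward WT#20D-17. Of 20, 13 were tested, 2 called higher (Nes, Gap43) and 5 lower in WT#20D-17 (4 to 6 with 1 day left out). Of all genes, 11.6% were called higher and 10.3% lower. The median of the neural genes tested was 0.16, and the daily medians over all 20 were 0.0 to 0.17. The list as a whole thus did not shift toward WT#1-4. Sox1, the earliest neuroectoderm factor, had 129, 108, 135, 93.6 and 71.6 CPM in WT#1-4 and 11.1, 2.38, 1.46, 1.76 and 0.212 CPM in WT#20D-17 (-5.72 ± 0.65, adjusted p = 0.000686 from edgeR). Map2, a neuronal microtubule protein, had 192, 167, 145, 250 and 480 CPM against 10.2, 5.42, 2.01, 1.84 and 2.17 CPM (-6.0 ± 0.62). Stmn2, a tubulin-binding protein of growing axons, had 782, 877, 872, 656 and 346 CPM against 71.3, 84.5, 29.6, 26.0 and 8.53 CPM. All 3 were at high levels in WT#1-4 on day 0. Ngfr, a neurotrophin receptor of neural crest, had 39.9 to 102 CPM in WT#1-4 and 0.583 to 5.53 CPM in WT#20D-17. Of 13 neural crest genes, 10 were tested, with Msx2 and Foxd3 called higher and Ngfr lower (1 to 5 and 1 to 2 with 1 day left out). These calls are too few to set the list apart from the 11.6% and 10.3% of all genes. Tubb3, the neuronal tubulin the study stained as beta-III tubulin, had 2.27 to 11.2 CPM in WT#1-4 and 4.82 to 15.8 CPM in WT#20D-17 and was not called, and the proneural genes Neurog1 and Neurog2 had too few counts to be tested.

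Hox genes, which set position along the body axis, differed by cluster. In the HoxA cluster 9 of 11 were tested, 5 were called lower in WT#20D-17 (Hoxa3 to Hoxa7) and none higher (3 to 5 and 0 to 1 with 1 day left out). Hoxa7 had 17.2, 11.2, 10.2, 7.5 and 4.72 CPM in WT#1-4 and 0.727, 1.08, 1.05, 1.11 and 0.741 CPM in WT#20D-17, so WT#1-4 was higher on each day. HoxC gave 1 call, Hoxc13, higher in WT#20D-17 at 0.501 to 1.8 CPM and too low to be tested without day 14. Of the 9 HoxC genes, 5, 6 and 5 were at least 2-fold higher in WT#20D-17 on days 5, 7 and 14. HoxB and HoxD gave none, with 4 genes of each tested.

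Trophoblast genes had their highest summed level on day 14 in WT#20D-17. Of 16 genes, 3, 6, 8, 7 and 13 were at least 2-fold higher on days 0, 3, 5, 7 and 14, with summed levels of 40.7, 97.6, 272, 256 and 587 CPM against 6.45 to 61.8 CPM. Of all genes, 16.5% were 2-fold higher on day 0 and 18.9% on day 14, so the day 0 count was near that share. Cdx2 was highest on day 5, at 17.5 CPM. Prl3b1, a placental lactogen of trophoblast giant cells, had 0.0, 0.0, 0.0, 0.3 and 85.6 CPM in WT#20D-17 and no count in WT#1-4. Prl3d1, the lactogen that precedes it, had 137 CPM on day 14 and no count on any other day in WT#20D-17, against 1 count in all in WT#1-4. Tpbpa, a spongiotrophoblast gene, had 75.3 CPM on day 14 against 1.4 CPM. Each of these levels rests on 1 library, and of the 13 genes tested over all days 5 were called higher, Prl3b1, Cdx2, Tfap2c, Ascl2 and Krt7, with 2 to 5 when 1 day was left out. Prl3b1 lost its call without day 5 or 7, Ascl2 without day 3 or 5 (2.12 and 2.00) and Krt7 without any 1 of days 0, 3, 5 and 7 (3.25 to 3.75). Germ cell and meiosis genes differed most on day 0. Of 25, 17 were at least 2-fold higher in WT#20D-17 on day 0 and 2 lower. On day 14, 3 were higher and 3 lower, and the share higher was under that of all genes. Of 17 tested, 7 were called higher and 2 lower (2 to 7 and 0 to 2 with 1 day left out). Sycp1, a protein of the synaptonemal complex, was steady at 6.02, 4.38, 3.85, 4.41 and 5.67 CPM and had no count in WT#1-4 (at least 199-fold higher). Mael, a piRNA pathway gene, had 7.55 CPM on day 0 and 0.477 CPM on day 14, with no count in WT#1-4. Sycp1 lost its call without day 5 or 7, and Mael without any 1 of days 0, 3, 5 and 7.

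**Figure D4:**
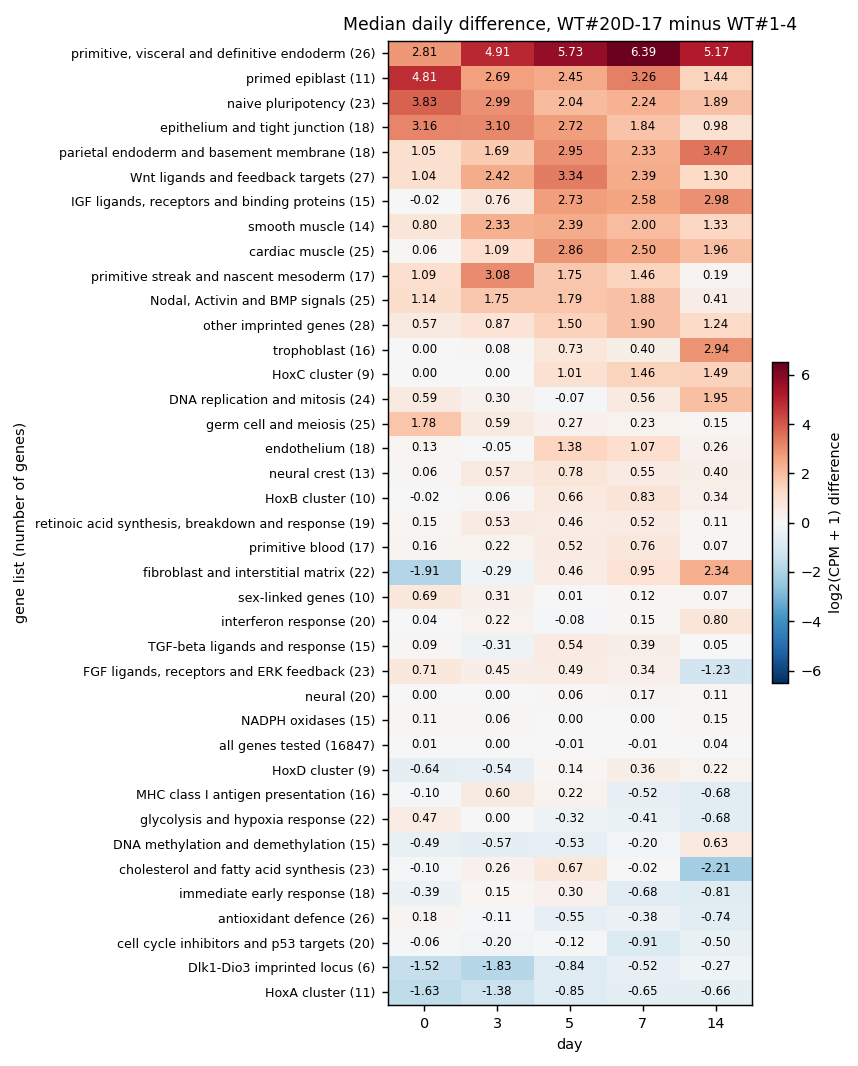
Median daily difference (log2(CPM + 1), WT#20D-17 minus WT#1-4, colour and printed value) of each gene list (rows, with the number of genes, untested genes included) on each day (columns). Endoderm was highest on every day but day 0, primed epiblast led on day 0 at 4.81, the primitive streak list was at its own highest on day 3 at 3.08 and the trophoblast list on day 14 at 2.94, while all genes tested lay between -0.01 and 0.04.

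Insulin-like growth factor genes and imprinted genes, which are expressed from 1 parental allele, included several highly expressed genes that were higher in WT#20D-17. Igf2, a fetal growth factor, had 14.2, 503, 2490, 4540 and 3625 CPM against 3.47, 10.6, 23.0, 56.9 and 56.0 CPM (5.55 ± 0.78, adjusted p = 0.00168 from edgeR), and the call was lost without day 5 (5.19). H19, the noncoding RNA of the same domain, had 119, 1700, 3784, 5838 and 4255 CPM against 15.8, 92.0, 129, 234 and 193 CPM (4.23 ± 0.33). Both were highest on day 7 in each line, though Igf2 was nearly level between days 7 and 14 in WT#1-4, and reads of Igf2 and its overlapping antisense gene cannot be told apart. Of 15 IGF genes, 7 were called higher and none lower (3 to 8 with 1 day left out), among them the RNA-binding Igf2bp1 at 285 to 383 CPM against 14.7 to 23.9 CPM. Of 28 imprinted genes outside the Dlk1-Dio3 locus, those 2 included, 10 were called higher and 1 lower, Peg13 (6 to 12 and 1 with 1 day left out). Peg10, a retrotransposon-derived placental gene, had 100, 904, 1378, 1521 and 1367 CPM against 3.27 to 37.1 CPM. At the Dlk1-Dio3 locus, with 6 genes of which 5 were tested, 1 was called higher and 2 lower (1 to 2 and 2 with 1 day left out). Dio3, a thyroid hormone deiodinase, was the gene called higher, with 6.78 CPM on day 5 against at most 0.219 CPM on any day in WT#1-4 (6.52 ± 0.94). The maternal noncoding RNA Meg3 was lower in WT#20D-17, at 0.668 to 1.88 CPM against 16.0 to 26.6 CPM (-4.02 ± 0.35), as was Rian. The paternally expressed Dlk1 had 1.9, 16.7, 322, 622 and 755 CPM in WT#20D-17 and 1.31 to 14.2 CPM in WT#1-4 and was not called (adjusted p = 0.027 from edgeR).

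Nox4, the NADPH oxidase on which the study centred, had 2.58, 6.88, 7.87, 8.7 and 2.97 CPM in WT#20D-17 and 0.261, 0.87, 0.767, 0.476 and 0.161 CPM in WT#1-4 (3.56 ± 0.36, adjusted p = 0.00044 from edgeR). The level was low in both lines but did not overlap, and it was highest on day 7 in WT#20D-17. Its subunit gene Cyba was also higher, at 20.7 to 75.3 CPM against 2.05 to 8.96 CPM, and the regulator Poldip2 was lower, at 69.4 to 94.7 CPM against 165 to 283 CPM. Of 15 NADPH oxidase genes, 7 were tested. Of 25 antioxidant genes tested, 2 were called higher (Gpx3, Gpx8) and 5 lower, beside 11.6% and 10.3% of all genes, and without day 3 or 5 the counts were 2 and 2. Nqo1, a quinone reductase, had 13.3, 53.7, 53.3, 68.4 and 85.4 CPM in WT#1-4 and 5.37, 3.67, 2.39, 4.11 and 1.22 CPM in WT#20D-17, and lost its call without day 3 (-4.05), day 5 (-3.83) or day 7 (-3.96). Sod2, the mitochondrial superoxide dismutase, had 103 to 174 CPM against 31.4 to 59.2 CPM (-1.70 ± 0.13).

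Wnt signals, which induce the primitive streak, were the pathway with the most calls in one direction. Of 27 genes, 26 were tested, 15 called higher and none lower in WT#20D-17 (11 to 17 with 1 day left out), with a median of 3.67. For this and the next lists, the shares of all genes were 11.6% higher and 10.3% lower. Axin2, a feedback target of the pathway, had 14.2 CPM on day 0, 26.8 on day 3 and 8.79 on day 14 against 0.186 to 0.73 CPM (5.6 ± 0.35, adjusted p = 7.97e-05 from edgeR). Dkk1, a secreted inhibitor and target, had 3.87 to 29.8 CPM against 0.161 to 0.516 CPM. The ligands Wnt4 and Wnt6 stood near 1 CPM on day 0 and at 27.1 and 37.8 CPM on day 3 in WT#20D-17, against at most 1.1 CPM. Of 25 Nodal, Activin and BMP genes, 9 were called higher and 1 lower, the BMP antagonist Grem1 (4 to 11 and 1 to 2 with 1 day left out). Bmp2 had 4.0, 27.2, 86.4, 87.2 and 33.5 CPM against 0.119 to 0.833 CPM, and Lefty1, an inhibitor and target of Nodal, had 402 CPM on day 0 and 1.85 CPM on day 14 against at most 0.657 CPM. Lefty1 lost its call without day 3 (6.13), day 5 (7.70) or day 7 (7.34). FGF genes went both ways, with 8 called higher and 5 lower of 23 (5 to 9 and 0 to 5 with 1 day left out). Fgf8 and Fgf10 were higher in WT#20D-17, and Fgf4, Fgfbp1 and the ERK target genes Etv1, Etv4 and Spred2 were higher in WT#1-4. Of 19 retinoic acid genes, 3 of the 18 tested were called higher and 2 lower (2 to 5 and 1 to 3 with 1 day left out). These shares were not far from the 11.6% and 10.3% of all genes, so the list as a whole was not set apart. Cyp26a1, which degrades retinoic acid, had 45.9, 237, 109, 148 and 42.8 CPM against 0.224 to 2.52 CPM, and Aldh1a3, which makes it, had 0.161 to 1.32 CPM against 8.87 to 13.6 CPM. Of 15 TGF-beta genes none was called higher and 2 lower, Tgfb3 and Ltbp3, which encodes a latent TGF-beta binding protein (0 to 1 and 2 to 4 with 1 day left out). The share called lower was not far from the 10.3% of all genes.

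Of 20 cell cycle inhibitors and p53 targets, none was called higher in WT#20D-17 and 4 were called lower (0 to 1 and 2 to 5 with 1 day left out, the 1 without day 14). Cdkn2a, the locus of p16 and p19Arf, had 96.1, 128, 119, 135 and 127 CPM in WT#1-4 and 2.22, 5.84, 9.84, 8.78 and 14 CPM in WT#20D-17 (-4.09 ± 0.35). Cdkn1a (p21) had 373, 342, 362, 496 and 987 CPM against 74.6 to 216 CPM. Neither gene overlapped between the lines. DNA replication and mitosis genes gave 1 call of 24, Bub1, lost without day 0, 3 or 7 (1.57, 1.65 and 1.77), but 19 of 24 were at least 2-fold higher in WT#20D-17 on day 14, with a median daily difference of 1.95. Cdk1 had 52.0 CPM against 208 CPM on that day and 183 against 273 CPM on day 0. Cholesterol and fatty acid genes showed the reverse on day 14, with 19 of 23 at least 2-fold lower in WT#20D-17 and a median of -2.21, while 1 was called over all days, Acaca. Hmgcs1, an early enzyme of the pathway, had 117, 203, 175, 275 and 944 CPM in WT#1-4 and 312, 388, 349, 281 and 126 CPM in WT#20D-17, so the lines crossed between days 5 and 14, with 275 and 281 CPM on day 7. Both day 14 results rest on 1 library per line.

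Of 22 glycolysis and hypoxia genes, 2 were called higher and 5 lower (2 and 2 to 4 with 1 day left out). Of all genes, 11.6% were called higher and 10.3% lower, and the median of the list was -0.2. Among those lower, Ankrd37 had 3.8 to 16.3 CPM in WT#20D-17 and 15.2 to 102 CPM in WT#1-4 (-2.62 ± 0.28). Egln3 was also lower (-1.61 ± 0.29). Slc2a3, a glucose transporter of early embryos, had 1416, 4867, 5169, 4391 and 2201 CPM in WT#20D-17 and 14.4, 164, 94.4, 125 and 29.9 CPM in WT#1-4 (5.72 ± 0.33). Of 19 interferon response genes tested, 4 were called higher and 1 lower, of 15 class I antigen presentation genes 1 and 3, and of 17 immediate early genes 2 and 1, the 1 being Myc. With 1 day left out these became 0 to 4 and 1, 1 and 1 to 2, and 0 to 2 and 1 to 2. The medians of these lists were 0.38, -0.18 and -0.27, and the calls stand beside the 11.6% and 10.3% of all genes. Of 10 sex-linked genes, 1 was called in each direction. Kdm5d, a Y-linked histone demethylase, had 52.1, 54.8, 58.1, 64.6 and 65.5 CPM in WT#1-4 and 1.29, 1.25, 0.586, 0.643 and 0.688 CPM in WT#20D-17 (-6.08 ± 0.32, adjusted p = 4.61e-05 from edgeR). The other Y-linked genes measured, Ddx3y, Eif2s3y and Uty, had at least 23.8 CPM in every library and were not called. Tsix was called higher in WT#20D-17, at 0.371 to 8.2 CPM against at most 0.335 CPM, and lost its call without any 1 of days 0, 3, 5 and 7 (4.37 to 5.33). Strand use in the counting is not stated, so its reads cannot be told from those of Xist.

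Some genes were present in every library of one line and close to absent in the other. With at least 20 counts in all 5 libraries of one line and at most 3 in each of the other, 130 genes were present only in WT#20D-17 and 106 only in WT#1-4. All were among the genes called, which adds no support, since this rule and the calls use the same counts. Of them, 30 and 33 had no count in the other line. Of the 130, 94 were protein coding and 27 pseudogenes, and 84 also had at most 3 counts in all 10 Nox4-/- libraries. Of the 106, 69 were protein coding and 6 pseudogenes, 5 had at most 3 counts in all Nox4-/- libraries and 42 had at least 20 in all of them. In WT#20D-17 the set was led by Gm8210, Hnf4a, Ap1m2 and Dnmt3l, among others. Ap1m2, the epithelial clathrin adaptor subunit, had 69.7, 87.8, 61.2, 77.5 and 41.9 CPM against 2 counts in all of WT#1-4, a summed ratio of 4243 with a counting interval of 1174 to 35043. In WT#1-4 it was led by Nyap2, Gm31562, Gm12671, Gprin3 and Meox2. Nyap2, a neuronal adaptor of PI3 kinase signalling, had 264, 165, 181, 149 and 51.0 CPM in WT#1-4 and no count in WT#20D-17, at least 6485-fold lower there. Meox2, a homeobox gene of somites and vessels, had 99.4, 91.5, 110, 56.9 and 5.58 CPM in WT#1-4, 1 count in WT#20D-17 and none in the Nox4-/- libraries. Gm8210, Gm4322, Gm12671 and Tdgf1-ps1 are pseudogenes with near-identical copies, so the division of shared reads makes their values uncertain.

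Upstream sequence is shown for 4 genes that stood near 0 in one line and were expressed in the other, with every CG pair, the site of DNA methylation in mammals, in capitals. Each run is the 250 bases before the gene's start, 5′ to 3′ on its own strand, from RefSeq for GRCm38.p6. Nanog and Foxa2 were near 0 in WT#1-4, and Meox2 and Nyap2 in WT#20D-17. They hold 3, 6, 12 and 3 CG pairs, and 94.3%, 85.3%, 65.9% and 94.3% of 10775 such windows of genes tested had as many or more. Methylation was not measured in these data.
Nanog (chr6:122707239-122707488, plus strand): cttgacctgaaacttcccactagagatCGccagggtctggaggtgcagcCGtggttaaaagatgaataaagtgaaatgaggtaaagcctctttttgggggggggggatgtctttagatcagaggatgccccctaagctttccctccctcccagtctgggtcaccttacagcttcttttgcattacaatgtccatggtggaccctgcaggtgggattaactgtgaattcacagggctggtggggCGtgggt
Foxa2 (chr2:148046970-148047219, minus strand): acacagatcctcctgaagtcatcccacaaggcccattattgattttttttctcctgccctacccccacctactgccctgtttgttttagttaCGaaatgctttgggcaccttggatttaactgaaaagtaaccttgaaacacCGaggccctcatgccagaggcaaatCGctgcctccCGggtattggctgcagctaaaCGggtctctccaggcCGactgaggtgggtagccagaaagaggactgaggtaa
Meox2 (chr12:37108290-37108539, plus strand): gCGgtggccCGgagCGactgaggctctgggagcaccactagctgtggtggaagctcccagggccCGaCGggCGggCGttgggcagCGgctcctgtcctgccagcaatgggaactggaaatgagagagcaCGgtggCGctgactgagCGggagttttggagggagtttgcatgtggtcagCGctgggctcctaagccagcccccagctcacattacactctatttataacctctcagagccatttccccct
Nyap2 (chr1:81076700-81076949, plus strand): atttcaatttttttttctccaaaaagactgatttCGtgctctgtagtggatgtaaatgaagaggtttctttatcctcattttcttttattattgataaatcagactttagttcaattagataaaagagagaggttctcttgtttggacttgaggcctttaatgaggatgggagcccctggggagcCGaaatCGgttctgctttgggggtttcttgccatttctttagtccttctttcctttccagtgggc

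The interactions of line and day asked on which days the lines came apart, with 3 residual degrees of freedom. No gene of 16847 (0.0%) passed an FDR of 0.01 for a trend of the line difference over days in edgeR's quasi-likelihood test, where the lowest adjusted p was 0.0189, although 4732 genes had an unadjusted p under 0.05 and DESeq2 called 1838. In simulated data, 0 of 100 genes with a true trend of 1 log2 unit per step of day passed an FDR of 0.01, and 18 passed 0.05. The simulated noise came from the fit without an interaction. Line differences that changed over days thus counted as noise, so the share passing may be too low. The absence of calls does not show that the line differences were steady. At an FDR of 0.05, 1196 genes of the real data passed, 484 toward WT#20D-17 and 712 toward WT#1-4 with time. Map2 and Pou5f1 were at the lowest adjusted p, with -0.93 and -0.95 log2 units per step of day, and Col4a1 had 1.44 (adjusted p = 0.0194). For Map2 the daily differences were -4.10, -4.71, -5.60, -6.46 and -7.24, growing at each day. No gene (0.0%) passed for a difference between day 0 and the later days, with a lowest adjusted p of 0.114, 1940 genes at an unadjusted p under 0.05 and 282 called by DESeq2.

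The genes for which the study lists RT-PCR primers were sorted here by germ layer, a grouping that the study's primer list does not give. All 6 genes placed under endoderm, Gata4, Sox17, Foxa2, Gata6, Afp and Klf5, were called higher in WT#20D-17, also with any 1 day left out. Klf5 stands between Afp and Eomes in the primer list, so its placing is uncertain and its call does not show endoderm differentiation. Of 8 placed under mesoderm, Pdgfra and Kdr were called higher and Cldn5 lower (2 to 4 and 0 to 1 with 1 day left out). Of 7 placed under ectoderm, 5 were tested, with Fgf5, Otx2 and Nes called higher and Map2 lower (2 to 4 and 1 with 1 day left out). Fgf5 and Otx2 are also the primed epiblast genes described above, lowest on day 14 in WT#20D-17, so their calls do not show ectoderm differentiation.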

How the data were processed

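RNA was measured by RNA-seq in 20 libraries of 4 mouse iPSC lines, 5 days per line, and the 10 of the wild type lines were compared, paired by day. Per the labels and the study's methods, the authors made stranded mRNA libraries, sequenced them paired-end, trimmed the reads and deposited expected counts per gene, which need not be whole. The submitters' processing notes name STAR 2.6.0c, RSEM 1.3.1 and GRCm38, and whether strand was used in counting is not given in the sources used here. RSEM divides shared reads between near-identical copies, so pseudogenes and gene families are uncertain.

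The deposited expected counts were rounded, and genes with a mean count of 10 or more over the 10 libraries were kept. edgeR 4.0.16 (R 4.3.3) was run with TMM factors, day and line in the model, the quasi-likelihood test and Benjamini-Hochberg adjustment. A gene was called at an FDR under 0.01 and a difference of at least 1 log2 unit, WT#20D-17 over WT#1-4, with a prior count of 0.125. The 2 interactions tested were a trend over the order of the days and day 0 against later days. Daily differences used log2(CPM + 1). DESeq2 1.42.0, other filters, scalings and thresholds, the fit without day and leaving out each day were alternatives. Scripts were tested on simulated data.

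Genes were named by rule: the genes of the study's RT-PCR primers, Nox4 and Igf2, up to 8 called members of each list with the largest difference plus defining members, the 10 largest differences in each direction, up to 10 genes present in one line only in each direction, and the 5 largest in each interaction. The members and lists were chosen with earlier results of these data known. Each line is 1 clone with 1 library per day, so p-values measure only the spread between these samples. For genes with no count in one line they do not measure it. Upstream sequences were taken from RefSeq (GRCm38.p6) for 10775 of the 16847 genes tested, which is too few for a comparison of groups, and none was made. Some genes are not reported here.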

Additional observations from a re-analysis of the deposited data

Results flagged for a closer look

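In 29 groups of 5 days looked at, 4 had a day that stood apart by Dixon's criterion (0.71 for 5 values), where chance flags about 1 in 20 groups. The TMM scaling factor of day 14 was 0.886 in WT#1-4 against 1.01 to 1.05 on the other days, and 0.902 in WT#20D-17 against 1.01 to 1.05. Day 14 thus stood apart in both lines in the same direction. The daily log2 difference of Igf2 was 1.77 on day 0 and 5.45 to 6.70 on the other days, and that of Sox17 was 3.2 on day 0 and 6.20 to 6.93 afterwards. In the test of day 0 against later days neither gene passed (adjusted p = 0.168 for Igf2 and 0.892 for Sox17 from edgeR's quasi-likelihood test).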

How the results depend on the processing

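The number of genes called between the lines, 3691, was 3687 with DESeq2 size factors, 4283 with no filter, 3402 with filterByExpr, 5261 with DESeq2's Wald test, 5277 at an FDR of 0.05, 4060 with no minimum difference, 2701 with at least 2 log2 units and 5273 with all 20 libraries in the fit. Leaving out 1 day gave 2055 to 3770 calls, of which 2186, 2015 and 2084 were shared without days 3, 5 and 7, and no shared call had the opposite sign. Without day as a block the quasi-likelihood test gave 3922 calls and the exact test 4819. The deviations of same-day libraries from their line's mean correlated at 0.299, 0.221, -0.222, 0.145 and 0.322 for days 0, 3, 5, 7 and 14, so the days did not pair the libraries throughout. Of 225 called genes chosen for naming, 22 lost the call without the block, among them Pou5f1 (-3.29) and Sox2 (2.08). The count for the Nox4-/- lines was 887 with day as a block and 262 without it. For the trend over days, no gene passed in the reported fit, 30 passed with no filter, 1838 with DESeq2, 1196 at an FDR of 0.05, and 0 to 1 with 1 day left out (1 without day 14). For day 0 against later days, 5 passed with no filter, 282 with DESeq2 and 0 to 5 with 1 day left out (5 without day 14), and leaving out day 0 could not be fitted. The cause of these changes was not tested. The fitted difference reversed in 4 genes that were not called. Under DESeq2 it was -0.23 for Ctsj and -1.30 for Tpbpa. For Gm6361 it was -1.61 (without day 5) to 2.14 (without day 7) with 1 day left out, -1.43 without day 0 and -0.76 with all 20 libraries. For Uty it was -0.17 (without day 3) to 0.28 (without day 14) with 1 day left out, -0.15 without day 0 and -0.11 without the block. The numbers of genes past 2-fold on each day stayed within 1.5 times under another pseudocount, scaling or filter. Genes under about 10 counts per library were not tested, and a level of 0 allows up to 3 counts.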

Other observations

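Genes on chromosome 14 were looked at because their levels stood out after the values of all chromosomes were seen. Over the 387 genes with a mean count of 200 or more, the median daily difference was 0.46, 0.45, 0.37, 0.42 and 0.39 on days 0, 3, 5, 7 and 14, with 71.6% of the genes higher in WT#20D-17. Over all 626 genes tested there it was 0.43, 0.44, 0.38, 0.41 and 0.38, with 20.4% called higher and 7.67% lower. On chromosome 1, with 629 genes, the medians were 0.16 to 0.26. The medians of the Nox4-/- lines against WT#1-4 on chromosome 14 were -0.02 and 0.02.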
